A study of Mus musculus with 20 samples.

Results

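The 29 genes described here make, sense or export cholesterol, and they were followed through RNA-seq of sorted mouse spleen cells. They were taken by symbol from a table of 28338 genes, and all 29 were found and passed the filter on low counts. Of them 19 encode enzymes of cholesterol synthesis, 5 encode the sterol-sensing transcription factors and their control proteins, 1 a sterol carrier, 2 efflux transporters and 2 liver X receptors. The cells came from C57BL/6 mice on postnatal day 21 and fall into 5 groups of 4 libraries. From mice labelled March1-/- there were CD11cint cells (spleen cells sorted as CD11cint, CD24+ and CD8int), type 1 conventional dendritic cells (cDC1) and B cells. From wild type (WT) mice there were cDC1 and B cells, and CD11cint cells of WT mice were not analysed here. March1 encodes an enzyme that marks MHC class II and CD86 with ubiquitin and so lowers their surface level. The series compares these populations around the question of how marginal zone B cells acquire material from dendritic cells, as its title states.

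Cholesterol is built from acetyl-CoA through the mevalonate pathway, squalene and lanosterol. When sterol in the endoplasmic reticulum is low, SCAP escorts the SREBP proteins to the Golgi, where they are cleaved and go on to switch on the synthesis genes, and INSIG proteins hold them back when sterol is plentiful. Oxidised sterols activate the liver X receptors, which switch on the efflux transporters ABCA1 and ABCG1, and in immune cells this balance is known to shape membranes, growth and inflammatory responses.

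Each library held 22491084 to 32751804 counts in genes. Levels are CPM, read counts scaled to a common TMM library size, with SD over n = 4 libraries, and levels of different genes are compared only as CPM per kb of exon. A gene was called at an adjusted p under 0.05 in the quasi-likelihood test of edgeR, adjusted over 18710 genes by the method of Benjamini and Hochberg, and log2 fold changes carry their SE. No label ties the libraries of a group to separate mice, so these p-values cover the spread between libraries, which may be technical. Fewer cells of a type and less RNA per cell cannot be told apart in such bulk RNA. Marker levels fitted the labels. Xcr1, a receptor of cDC1, averaged 788 and 911 CPM in March1-/- and WT cDC1, against 3.52 CPM in CD11cint cells and 1.65 and 1.23 CPM in March1-/- and WT B cells. The whole list of 10 cDC1 marker genes was less exclusive. It summed on average to 8084 and 8485 CPM in March1-/- and WT cDC1 and to 914.5 CPM in CD11cint cells. In March1-/- and WT B cells its sum averaged 804.1 and 911.1 CPM. The 9 pan B marker genes summed to 8998 to 9995 CPM in the CD11cint group, between 170.7 and 267.4 CPM over all cDC1 libraries, and to 8450 to 9088 CPM in B cells of March1-/- mice and 8466 to 8890 CPM in those of WT mice. March1 itself was still counted in the March1-/- libraries (263 ± 8.26 CPM in March1-/- cDC1 and 341 ± 27.3 CPM in WT cDC1, but 150.5 ± 15.2 CPM in March1-/- B cells and 146.9 ± 8.85 CPM in WT B cells). The sources used here do not give the deleted part, so this count does not check the genotype. The March1-/- libraries numbered 1 of CD11cint cells and cDC1 lay away from the rest of their groups. Their chi-square per gene was at least 45.4 to any other library, against at most 21.3 among the rest. That of March1-/- B cells was less distinct (14.6 to 23.3, against 9.94 to 17.1 among the rest). Results are also given without these 3 where a call changes.

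All 29 genes were counted in every group, at very different levels. Per kb of exon, Srebf2, which encodes the SREBP that mainly drives cholesterol synthesis, was the highest of the 29 in all 5 groups. It averaged 28.0 CPM per kb in CD11cint cells, 41.3 in March1-/- cDC1, 41.8 in WT cDC1, 32.9 in B cells of March1-/- mice and 34.2 in those of WT mice. Nr1h2, which encodes liver X receptor beta, came second in all 5 groups, between 17.1 and 22.9 CPM per kb. Its relative Nr1h3, the alpha receptor, was at 0.457 to 0.586 CPM per kb. Summed over the 19 synthesis enzymes, the level was 100.2 ± 5.66 CPM per kb in CD11cint cells, 128.0 ± 6.90 in March1-/- cDC1, 150.8 ± 8.91 in WT cDC1, 103.6 ± 4.22 in B cells of March1-/- mice and 112.3 ± 8.10 in those of WT mice. The sums of the March1-/- cDC1 libraries, at most 136.4, all lay below those of WT cDC1, at least 140.9. Those of March1-/- B cells (99.2 to 107.8) and of WT B cells (101.9 to 121.7) overlapped.

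The genes varied to unequal degrees across the groups. Srebf1, whose product drives mainly fatty acid synthesis, varied least, with a ratio of 1.19 between the highest and the lowest group mean. The transporter gene Abca1 varied most, with a ratio of 45.5. Fdps (3.23), Hsd17b7 (2.95), Sqle (2.41), Nsdhl (2.31) and Pmvk (2.10) followed it, and the other 22 genes had ratios of 1.26 to 1.995.

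**Figure D1:**
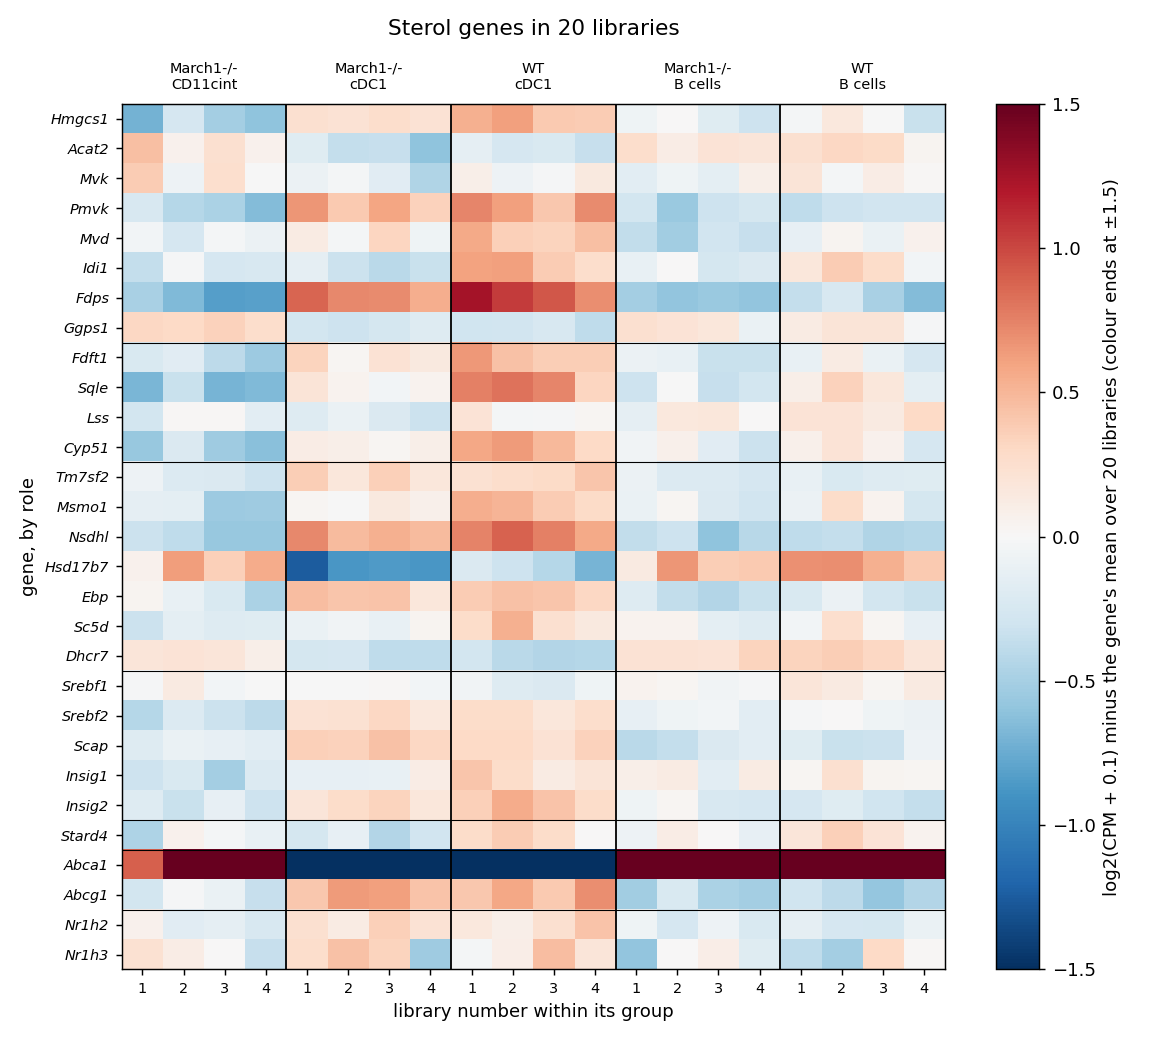
Level of each of the 29 genes (rows, by role) in each of the 20 libraries (columns, by group), as log2(CPM + 0.1) minus the gene's mean over all libraries, with colours ending at ±1.5. Abca1 is far above its mean in CD11cint cells and B cells and far below it in cDC1, while Fdps, Nsdhl and Pmvk are above their means in cDC1.

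A minority of the synthesis genes was lower in March1-/- cDC1 than in WT cDC1, 6 of the 19 enzymes. Of the 29 genes 8 fell and none rose, where 1.34% of all tested genes fell and 1.53% rose. Of the mevalonate enzymes Idi1 and Mvd fell, of the squalene and lanosterol enzymes Sqle and Cyp51, and of the later enzymes Hsd17b7 and Sc5d. The 2 others were Stard4 and Insig1. The median log2 fold change was −0.19 over the 29 genes and −0.26 over the 19 enzymes, against 0.01 over all genes. At an unadjusted p under 0.05, 15 of the 29 were lower and 2 higher. The share of all tested genes at that looser rule was not counted, so the shares above are no background for it. The adjusted counts of falls were 8 with DESeq2 and 7 with limma-voom, with no rise in either.

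Idi1 (ENSMUSG00000058258, chromosome 13, 8885501 to 8892451, plus strand, GRCm38) encodes the isomerase that makes dimethylallyl diphosphate, a building block of all isoprenoids. It was at 28.3, 24.7, 23.4 and 24.5 CPM in the March1-/- cDC1 libraries, against 46.9, 47.5, 40.2 and 37.1 CPM in the WT cDC1 libraries. Every March1-/- library lay below every WT library, and the log2 fold change was −0.77 ± 0.10 (edgeR adjusted p = 3.19e-05). Sqle (ENSMUSG00000022351, chromosome 15, 59315077 to 59331192, plus strand) encodes squalene epoxidase, a rate-limiting enzyme of the pathway. Its levels were 19.3, 17.5, 16.4 and 17.6 CPM in March1-/- cDC1 and 28.6, 29.8, 28.2 and 21.1 CPM in WT cDC1. The groups did not overlap, although WT library 4 lay closer to the March1-/- libraries than to the other WT libraries (−0.61 ± 0.11, edgeR adjusted p = 0.00232). Stard4 (ENSMUSG00000024378, chromosome 18, 33199355 to 33213862, minus strand) encodes a protein that carries sterol between membranes. It stood at 25.3, 28.0, 22.4 and 24.98 CPM in March1-/- cDC1 and at 37.0, 39.7, 37.0 and 30.7 CPM in WT cDC1. Again no March1-/- library reached the lowest WT library (−0.52 ± 0.10, edgeR adjusted p = 0.0031). The calls of Idi1, Sqle and Stard4 held under all 17 alternatives run for this comparison, with an adjusted p of at most 0.00028, 0.0146 and 0.0194.

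The other 5 falls were smaller or less steady. Hsd17b7 (ENSMUSG00000026675, chromosome 1, 169949535 to 169969241, minus strand), which encodes the reductase that follows removal of the sterol C4 methyl groups, was at 2.60, 3.40, 3.44 and 3.39 CPM in March1-/- cDC1 and 5.41, 5.06, 4.65 and 3.83 CPM in WT cDC1. March1-/- library 1 was the lowest of its group by a wide gap (−0.57 ± 0.15, edgeR adjusted p = 0.0421). Cyp51, the lanosterol demethylase gene, fell by 0.43 ± 0.10 on the log2 scale, Sc5d, a sterol desaturase gene, by 0.37 ± 0.09, Mvd, the mevalonate diphosphate decarboxylase gene, by 0.34 ± 0.09, and Insig1 by 0.31 ± 0.09 (edgeR adjusted p = 0.0174, 0.0215, 0.0449 and 0.0473). The Hsd17b7 call ended in limma-voom (0.102), the Insig1 call with upper-quartile factors (0.0546) and with no filter (0.0589), and the Mvd call in the fit of these 2 groups alone (0.0677) and with no filter (0.0683). Leaving out 1 library ended these 5 calls as follows. The Cyp51 call ended without March1-/- library 2 or 3 or WT library 1 or 2 (adjusted p = 0.0524, 0.0586, 0.0541 and 0.0865), and the Sc5d call without March1-/- library 1, 2 or 3 or WT library 2 (0.0793, 0.062, 0.0717 and 0.134). The Mvd call ended without March1-/- library 1, 2 or 4 (0.0982, 0.179 and 0.166) and without WT library 1, 2, 3 or 4 (0.152, 0.0672, 0.056 and 0.111). The Hsd17b7 call ended without March1-/- library 1, 2, 3 or 4 (0.178, 0.0788, 0.064 and 0.0687) and without WT library 1, 2 or 3 (0.136, 0.136 and 0.0868). The Insig1 call ended without March1-/- library 1, 2 or 3 (0.152, 0.159 and 0.132) and without WT library 1, 2 or 4 (0.171, 0.126 and 0.0656). Without the 3 March1-/- libraries numbered 1, 5 of the 29 genes fell, and Mvd (0.0751), Hsd17b7 (0.062) and Insig1 (0.119) were no longer called.

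In 12 of the 29 genes every March1-/- cDC1 library lay below every WT cDC1 library, where 4.03% of all tested genes did so. They were the 8 called genes and Hmgcs1 (HMG-CoA synthase, −0.25 ± 0.10), Fdft1 (squalene synthase, −0.28 ± 0.10), Lss (lanosterol synthase, −0.26 ± 0.09) and Msmo1 (methylsterol monooxygenase, −0.38 ± 0.11), none of which passed the test (edgeR adjusted p = 0.247, 0.196, 0.15 and 0.0749). Only Srebf1 and Abca1 had every March1-/- library above every WT library, where 4.45% of all tested genes did so. The genes of the SREBP machinery itself had small differences, with Srebf2 at −0.02 ± 0.06 (95% interval −0.145 to 0.105), Scap at 0.07 ± 0.06, Srebf1 at 0.12 ± 0.06 and Insig2 at −0.17 ± 0.08, none past the test. The late enzymes Ebp (−0.01 ± 0.09), Tm7sf2 (−0.03 ± 0.06) and Dhcr7 (0.07 ± 0.07) and the receptor gene Nr1h2 (0.00 ± 0.08) were not called either. The other 6 enzymes, Acat2, Mvk, Pmvk, Fdps, Ggps1 and Nsdhl, lay between −0.28 and 0.04 without a call.

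Marker genes of other cells moved with this comparison. Of 9 pan B marker genes 6 rose in March1-/- cDC1 (median log2 fold change 0.94), and their sum was 213.2 to 267.4 CPM in March1-/- cDC1, against 170.7 to 193.4 CPM in WT cDC1. None of the 9 was at or under 3 counts in either group, and 1 of them, Fcrla, made up 71.3 CPM of the mean sum in March1-/- cDC1 and 57.8 CPM in WT cDC1. Of 7 marginal zone and follicular genes 4 rose and of 5 plasma cell genes 1 rose. None of 12 proliferation genes was called (median 0.13). The part of these cells in the falls of the sterol genes was not tested.

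**Figure D2:**
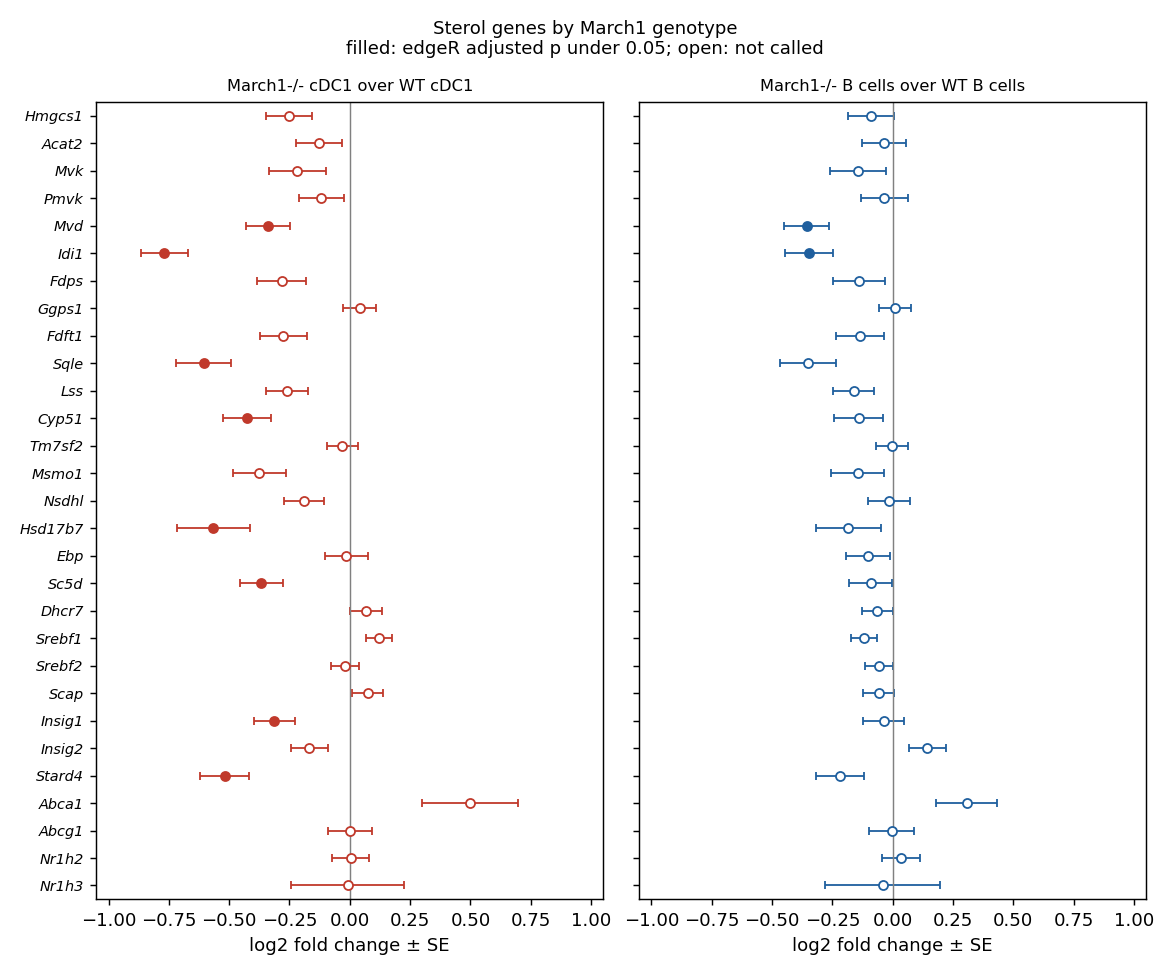
Log2 fold change ± SE of each gene in March1-/- over WT cells, for cDC1 (left) and B cells (right), with filled points for genes called by edgeR. In cDC1 the 8 filled points lie between −0.77 and −0.31, and in B cells only Mvd and Idi1 are filled.

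Promoters were read because 8 of these genes fell together in March1-/- cDC1. SREBP is known to bind its target promoters beside the factor NF-Y, and a RefSeq promoter of GRCm38.p6, from 250 bases before the start to 50 after it, was found for 24 of the 29 genes. Fdps, Fdft1, Sqle, Stard4 and Abcg1 were not matched. Some genes had more than 1 promoter, and a gene was counted if any of them held the letters. The 5 letters ATTGG, the core that NF-Y is known to bind, stood on either strand in a promoter of 19 of the 24 genes (79.2%). Of these, Insig2, Dhcr7, Pmvk and Srebf1 also had a promoter without ATTGG. Of 11036 tested genes with a promoter, 42.6% held ATTGG. The E-box CACGTG was in 6 of 24 (25%), against 11.2% of these genes. The sterol regulatory element searched as TCACNCCAC was in 1 of 24, Hmgcs1 (4.17%, against 1.36%), and its shorter form CACCCCAC was in Hmgcs1 and Acat2 (8.33%, against 3.83%). In Hmgcs1 both forms are the same site. The liver X receptor element named DR4 was searched only as an exact spaced repeat. That exact form was in none of the 24 and in none of the tested genes. The search therefore could not tell members from other genes. Elements that differ from the exact repeat were not searched, so no absence of a liver X receptor element follows for Abca1, Srebf1 or any other member. These counts describe letters in a window and no binding.

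The 250 bases before the start are printed for 4 genes that fell in March1-/- cDC1 (Idi1, Cyp51, Hsd17b7 and Insig1), for Hmgcs1, the only gene with the longer sterol element, and for Abca1, the gene that varied most. Capitals mark ATTGG, read on the other strand as CCAAT. They also mark the E-box CACGTG. In Hmgcs1 they mark the sterol element TCACCCCAC as well.
Idi1, chr13:8885356-8885605, plus strand: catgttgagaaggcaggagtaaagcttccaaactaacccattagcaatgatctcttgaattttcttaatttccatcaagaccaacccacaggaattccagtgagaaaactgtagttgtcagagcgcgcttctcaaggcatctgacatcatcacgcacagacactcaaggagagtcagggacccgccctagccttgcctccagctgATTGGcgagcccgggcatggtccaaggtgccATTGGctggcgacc
Cyp51, chr5:4104698-4104947, minus strand: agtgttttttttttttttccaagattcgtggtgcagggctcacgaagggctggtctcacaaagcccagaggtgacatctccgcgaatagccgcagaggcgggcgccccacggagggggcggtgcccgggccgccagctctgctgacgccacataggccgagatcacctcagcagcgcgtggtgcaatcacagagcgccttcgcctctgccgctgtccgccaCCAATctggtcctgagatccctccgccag
Hsd17b7, chr1:169969206-169969455, minus strand: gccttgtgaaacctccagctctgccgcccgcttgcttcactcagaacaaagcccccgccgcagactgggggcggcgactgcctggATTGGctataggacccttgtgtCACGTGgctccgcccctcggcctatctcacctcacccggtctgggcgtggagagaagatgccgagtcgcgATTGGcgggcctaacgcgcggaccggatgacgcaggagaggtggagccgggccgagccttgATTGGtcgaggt
Insig1, chr5:28071162-28071411, plus strand: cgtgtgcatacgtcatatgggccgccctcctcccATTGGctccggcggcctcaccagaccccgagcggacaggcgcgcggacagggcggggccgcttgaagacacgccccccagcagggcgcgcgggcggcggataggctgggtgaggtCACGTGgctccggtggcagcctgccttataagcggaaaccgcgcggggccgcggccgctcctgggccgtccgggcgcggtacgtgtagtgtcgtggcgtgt
Hmgcs1, chr13:119690101-119690350, plus strand: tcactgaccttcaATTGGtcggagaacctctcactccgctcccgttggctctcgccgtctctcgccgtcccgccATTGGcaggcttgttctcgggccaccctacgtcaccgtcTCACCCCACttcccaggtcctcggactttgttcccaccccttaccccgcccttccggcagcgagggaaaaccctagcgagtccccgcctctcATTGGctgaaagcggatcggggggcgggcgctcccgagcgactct
Abca1, chr4:53159896-53160145, minus strand: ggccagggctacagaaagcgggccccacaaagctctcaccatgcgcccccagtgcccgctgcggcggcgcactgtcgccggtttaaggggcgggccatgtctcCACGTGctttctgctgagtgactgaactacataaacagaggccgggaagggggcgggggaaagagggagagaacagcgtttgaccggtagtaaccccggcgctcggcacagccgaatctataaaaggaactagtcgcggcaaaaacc
Idi1 holds ATTGG at 2 places near the start, Hsd17b7 at 3 and Cyp51 holds the complement once. Insig1 and Hsd17b7 hold CACGTG as well, and Abca1 holds CACGTG without ATTGG. The 19 genes with ATTGG include some without a call in March1-/- cDC1, such as Srebf2, Dhcr7, Ebp and Tm7sf2.

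Between B cells of the genotypes the differences were fewer. In March1-/- B cells 2 of the 29 genes fell and none rose, where 2.44% of all tested genes fell and 2.31% rose. Mvd fell by 0.36 ± 0.09 and Idi1 by 0.35 ± 0.10 on a log2 scale (edgeR adjusted p = 0.0274 and 0.0421). At an unadjusted p under 0.05, 5 genes were lower and 1 was higher, with the share of all tested genes at that rule not counted. DESeq2 and limma-voom each gave 2 falls and no rise. Mvd was at 8.62, 7.76, 9.13 and 8.76 CPM in March1-/- B cells and 10.2, 11.5, 10.4 and 11.7 CPM in WT B cells. It was the only one of the 29 genes with every March1-/- library below every WT library, where 5.43% of all tested genes were so, and none had every March1-/- library above, where 5.92% were so. Idi1 was at 28.7, 31.2, 25.7 and 26.7 CPM in March1-/- B cells and 35.0, 40.4, 37.4 and 30.1 CPM in WT B cells, with WT library 4 among the March1-/- values. Sqle, at 13.7, 16.9, 13.3 and 13.9 CPM in March1-/- B cells and 18.0, 21.5, 18.96 and 15.3 CPM in WT B cells, had a log2 fold change of −0.35 ± 0.12 that did not pass the test (edgeR adjusted p = 0.0941), and passed it without March1-/- library 2 (0.0409) or WT library 4 (0.0452). WT library 4 overlapped the March1-/- range in both genes.

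Neither call in B cells was firm. The Mvd call ended without March1-/- library 1 or 2 or WT library 2 or 4 (edgeR adjusted p = 0.0654, 0.0876, 0.0781 and 0.0958). The Idi1 call ended without March1-/- library 1, 3 or 4 (0.0832, 0.158 and 0.0978) and without WT library 1, 2 or 3 (0.0855, 0.162 and 0.113). Without the 3 March1-/- libraries numbered 1, Mvd was not called (0.0545). Of 12 proliferation genes 2 were lower in March1-/- B cells (median −0.32), with a sum of 615.9 to 1020 CPM in March1-/- B cells and 921.6 to 1014 CPM in WT B cells. Of 5 tested genes of immature and transitional B cells 3 were higher (median 0.85), and their list summed to 155.9 to 258.2 CPM in March1-/- B cells and 107.3 to 128.8 CPM in WT B cells. Of 7 marginal zone and follicular genes 3 were higher and 3 lower, and of 10 cDC1 genes 2 were lower, with sums of 701.7 to 850.7 CPM in March1-/- B cells and 853.5 to 954.6 CPM in WT B cells. The part of these markers in the falls of Mvd and Idi1 was not tested.

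Without a block, the genotype effect was not shown to differ between cDC1 and B cells for any of the 29 genes. In the test of that difference none of the 29 was called, where 1.49% of all tested genes were called higher and 0.871% lower. DESeq2 and limma-voom called none of the 29 either. With the library number as a block, Idi1 was called lower (edgeR adjusted p = 0.0319), as were 260 of the 18710 tested genes. At an unadjusted p under 0.05, 5 genes were lower and 1 was higher, and the share of all tested genes at that rule was not counted. Idi1 had the widest gap, with a fall of 0.77 ± 0.10 in March1-/- cDC1 and of 0.35 ± 0.10 in March1-/- B cells on the log2 scale. Its difference was −0.42 ± 0.14 (95% interval −0.717 to −0.125, edgeR adjusted p = 0.134). That of Sqle was −0.25 ± 0.16 (95% interval −0.599 to 0.091) and that of Stard4 −0.30 ± 0.14 (95% interval −0.604 to −0.001). The interval of Sqle includes 0. Srebf1 went the other way, at 0.24 ± 0.08 (95% interval 0.075 to 0.406). Insig2 was at −0.31 ± 0.11 (95% interval −0.546 to −0.08). Insig1 was at −0.28 ± 0.12 (95% interval −0.533 to −0.02) and Sc5d at −0.28 ± 0.13 (95% interval −0.544 to −0.007). These intervals are not adjusted for the number of genes.

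**Figure D3:**
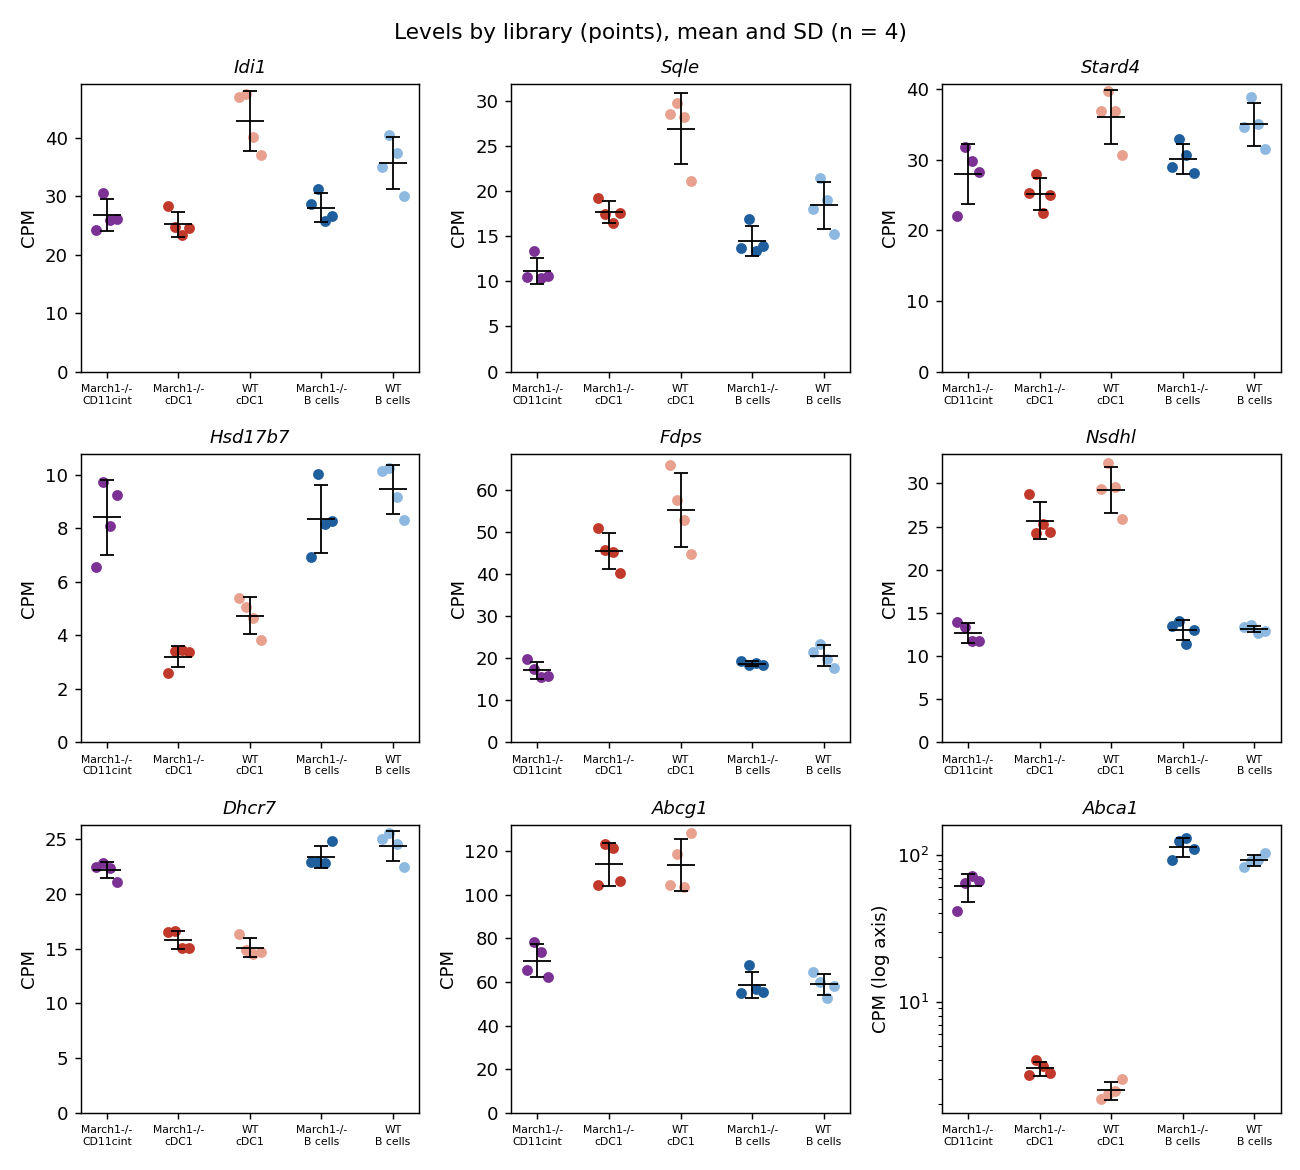
CPM in each library (points) with mean and SD (n = 4) for 9 genes in the 5 groups, on linear axes from 0 except Abca1, which has a log axis. Idi1, Sqle and Stard4 are lower in March1-/- cDC1 than in WT cDC1 with no overlap, and Abca1 is at 2.17 to 3.996 CPM in cDC1 and at 41.7 CPM or more in the other groups.

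CD11cint cells were first set against March1-/- B cells, which share their genotype. Of the 29 genes 1 rose and 6 fell, where 12.5% of all tested genes rose and 12.2% fell, so the share of changed genes was near that of all genes. The median log2 fold change was −0.075 over the 29 genes and 0.006 over all genes. Abca1 fell most, by 0.90 ± 0.13 on a log2 scale (edgeR adjusted p = 1.86e-05), and the others that fell were Hmgcs1 (−0.38 ± 0.10), Cyp51 (−0.37 ± 0.10), Sqle (−0.37 ± 0.12), Insig1 (−0.36 ± 0.09) and Srebf2 (−0.23 ± 0.06). Mvd rose by 0.28 ± 0.09.

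Srebf2 was at 188.5, 220.2, 202.6 and 193.0 CPM in CD11cint cells and 231.6, 241.5, 246.0 and 227.5 CPM in March1-/- B cells. Insig1, whose product holds SCAP in the endoplasmic reticulum, was at 21.8, 22.9, 18.9 and 23.3 CPM in CD11cint cells and 28.6, 29.3, 24.2 and 29.5 CPM in March1-/- B cells. Neither gene overlapped between the groups, and with Abca1 they were the 3 genes with every CD11cint library lower, where 11.2% of all tested genes were so. Mvd and Ggps1, the geranylgeranyl diphosphate synthase gene, had every CD11cint library higher, where 11.0% of all tested genes did. Hmgcs1, Cyp51 and Sqle overlapped, with CD11cint library 2 the highest of its group in each: Sqle was at 10.4, 13.4, 10.3 and 10.6 CPM in CD11cint cells and 13.7, 16.9, 13.3 and 13.9 CPM in March1-/- B cells.

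Library numbers were taken to pair these 2 groups because same-numbered libraries deviated together, although no label says what equal numbers share. The calls above come from the fit without that pairing. With the number as a block, 4 genes rose, since Ggps1 (0.17 ± 0.07 without the block, edgeR adjusted p = 0.0663, and 0.0294 with it), Scap (0.14 ± 0.06, 0.129 and 0.049) and Abcg1 (0.25 ± 0.09, 0.0505 and 0.00344) joined Mvd. Calls rose over all 18710 tested genes too, to 3075 higher and 3053 lower with the block from 2335 and 2278 without it. The Mvd call ended in the fit of these 2 groups alone (0.0735), without March1-/- B cell library 1 or 2 (0.0555 and 0.103) and without CD11cint library 1, 3 or 4 (0.0693, 0.077 and 0.0529). The Sqle call ended without March1-/- B cell library 2 (0.111) and without CD11cint library 1, 3 or 4 (0.0672, 0.072 and 0.0607). Abcg1 was called without March1-/- B cell library 2 (0.0151) and without CD11cint library 1 or 4 (0.0406 and 0.0227), Ggps1 without March1-/- B cell library 1 (0.041), and Ebp, a sterol isomerase gene, without CD11cint library 4 (0.0479). Srebf2 was not called in the fit of these 2 groups alone (0.0504). Without the 3 March1-/- libraries numbered 1, Hmgcs1 (0.0677), Cyp51 (0.0772), Sqle (0.0798) and Mvd (0.111) were not called.

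Cell markers moved between these groups as well. Of 5 tested genes of immature and transitional B cells 4 fell in CD11cint cells (median −2.65), their list summing to 37.4 to 50.5 CPM in CD11cint cells and 155.9 to 258.2 CPM in March1-/- B cells, with Rag1 at or under 3 counts in CD11cint cells. Of 7 marginal zone and follicular genes 4 rose and 3 fell. Of 10 cDC1 genes 6 rose, with sums of 735.2 to 1004 CPM in CD11cint cells and 701.7 to 850.7 CPM in March1-/- B cells. Of 6 T and NK cell genes 5 fell, with sums of 45.2 to 60.9 CPM in CD11cint cells and 102.2 to 124.4 CPM in March1-/- B cells. Of 8 immediate early genes 4 fell, with sums of 245.1 to 550.3 CPM in CD11cint cells and 500.4 to 1003 CPM in March1-/- B cells. No proliferation gene of 12 was called (median 0.02). The part of these markers in the sterol genes was not tested.

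Against WT B cells, CD11cint cells differed in both genotype and population, and more synthesis genes were lower. Of the 29 genes 10 fell and none rose, where 8.04% of all tested genes fell and 5.99% rose. Sqle fell by 0.72 ± 0.12, Abca1 by 0.59 ± 0.13, Cyp51 by 0.51 ± 0.10, Hmgcs1 by 0.47 ± 0.10, Idi1 by 0.42 ± 0.10 and Insig1 by 0.40 ± 0.09 on a log2 scale (edgeR adjusted p = 0.000167, 0.00281, 0.00126, 0.00185, 0.00555 and 0.00263). Msmo1 (−0.34 ± 0.11), Stard4 (−0.33 ± 0.10), Lss (−0.31 ± 0.09) and Srebf2 (−0.29 ± 0.06) were the others. At an unadjusted p under 0.05, 14 genes were lower and 2 higher, with the share of all tested genes at that rule not counted. DESeq2 gave 10 falls and 1 rise, and limma-voom 9 falls and no rise. Every CD11cint library lay below every WT B cell library for 6 genes, the called Sqle, Lss, Srebf2, Insig1 and Abca1 and the uncalled Sc5d (−0.25 ± 0.09, edgeR adjusted p = 0.0696), where 9.68% of all tested genes were so. Ggps1 had every CD11cint library higher, as did 7.82% of all tested genes.

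The weakest of these calls were those of Msmo1, Lss and Stard4. The Msmo1 call ended without CD11cint library 3 or 4 (edgeR adjusted p = 0.139 and 0.121) and without WT B cell library 1, 2 or 3 (0.0524, 0.214 and 0.114). It also ended in limma-voom (0.0508), in the fit of these 2 groups alone (0.148), with RLE factors (0.0576) and with no filter (0.0964). The Lss call ended without CD11cint library 1 (0.064) or WT B cell library 4 (0.0549). Without the 3 March1-/- libraries numbered 1, Lss (0.0532) and Stard4 (0.129) were not called. The Stard4 call ended without CD11cint library 1 (0.114), without WT B cell library 1, 2 or 3 (0.0515, 0.122 and 0.0674) and in the fit of these 2 groups alone (0.0838). Sc5d was called without WT B cell library 4 (0.0408) and Abcg1, as a rise, without CD11cint library 4 (0.0346). Of 12 proliferation genes 5 fell in CD11cint cells, with sums of 540.1 to 855.0 CPM in CD11cint cells and 921.6 to 1014 CPM in WT B cells, and of 5 immature and transitional B cell genes 5 fell. Of 10 cDC1 genes 5 rose, of 7 marginal zone and follicular genes 4 rose and 2 fell, and of 6 T and NK cell genes 3, of 8 immediate early genes 3 and of 5 plasma cell genes 2 fell. The part of these markers was not tested. Both comparisons share the CD11cint libraries.

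**Figure D4:**
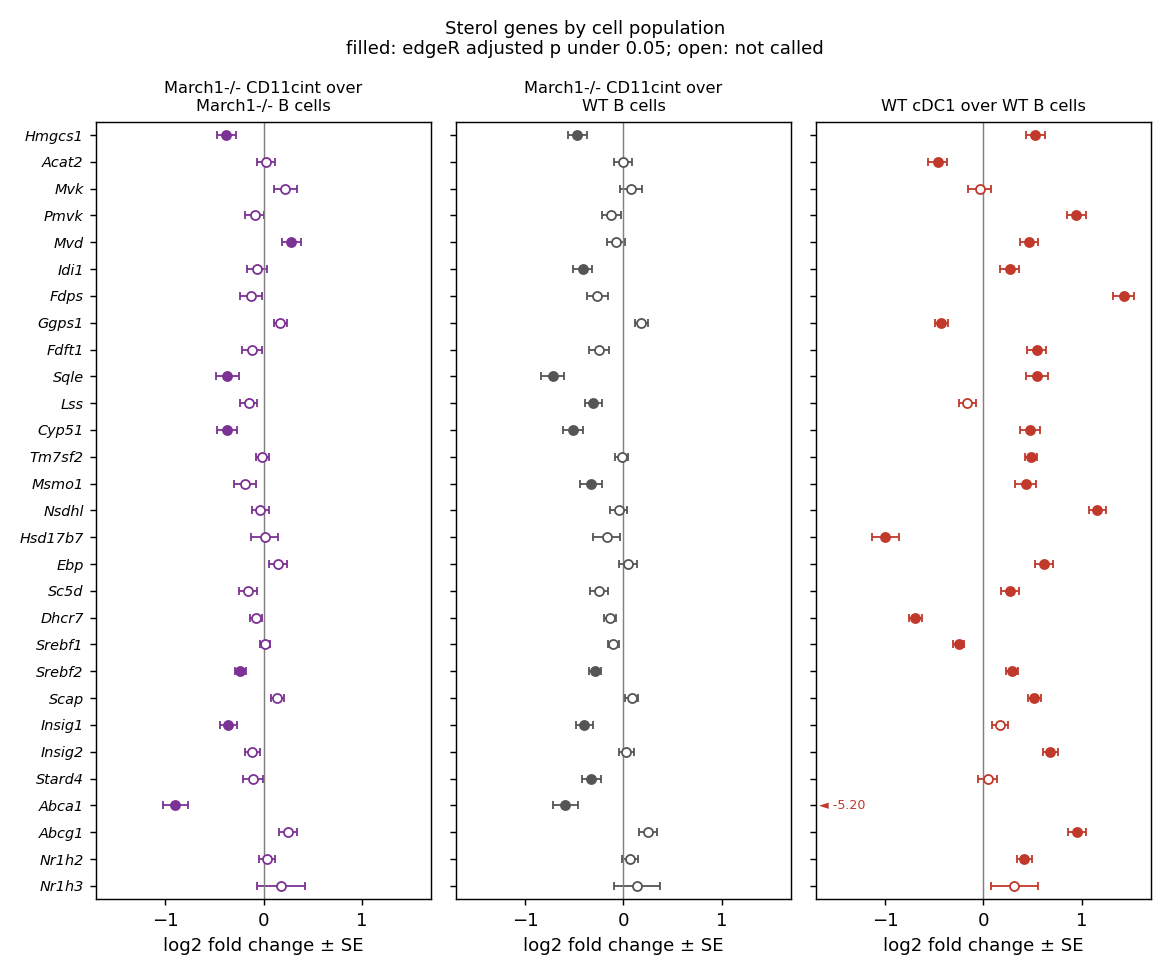
Log2 fold change ± SE of each gene in CD11cint cells over March1-/- B cells (left), CD11cint cells over WT B cells (middle) and WT cDC1 over WT B cells (right), with filled points for genes called by edgeR. Abca1 in WT cDC1 lies beyond the axis at −5.20, and Sqle, Cyp51, Hmgcs1, Insig1, Srebf2 and Abca1 are filled below 0 in both CD11cint panels.

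Between the cell types the sterol genes split. In WT cDC1 18 of the 29 genes were higher than in WT B cells, 6 were lower and 5 were not called, where 34.9% of all tested genes rose and 36.2% fell. The median log2 fold change was 0.42 over the 29 genes, 0.46 over the 19 enzymes and −0.05 over all genes. Of the 19 enzymes 13 were higher in cDC1 and 4 lower. Libraries did not overlap for 15 of the 29 genes that were higher and 6 that were lower, where 33.8% and 34.8% of all tested genes were so. Upper-quartile factors shifted the median of all genes by −0.11 and gave 16 rises and 7 falls, with Idi1 and Sc5d no longer called (edgeR adjusted p = 0.158 and 0.113) and Lss called lower (0.00573).

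Fdps (ENSMUSG00000059743, chromosome 3, 89093588 to 89101959, minus strand), which encodes the synthase of farnesyl diphosphate at the branch toward sterols and prenylated proteins, was at 65.9, 57.5, 52.8 and 44.8 CPM in WT cDC1 and 21.5, 23.4, 19.7 and 17.6 CPM in WT B cells. The groups lay far apart (1.43 ± 0.11, edgeR adjusted p = 3.15e-11). Nsdhl (ENSMUSG00000031349, chromosome X, 72918557 to 72958514, plus strand), a dehydrogenase that helps to remove the C4 methyl groups of sterols, was at 29.3, 32.4, 29.6 and 25.8 CPM in WT cDC1 and 13.3, 13.6, 12.7 and 12.9 CPM in WT B cells. Here too every cDC1 library stood above every B cell library (1.16 ± 0.08, edgeR adjusted p = 2.07e-11). The phosphomevalonate kinase gene Pmvk (0.94 ± 0.09), Insig2 (0.68 ± 0.08) and Ebp (0.62 ± 0.09) rose less. Sqle, Fdft1, Hmgcs1, Scap, Tm7sf2, Cyp51, Mvd, Msmo1, Nr1h2, Srebf2, Sc5d and Idi1 rose by 0.27 to 0.55 on the log2 scale.

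The genes that were lower in WT cDC1 included enzymes next to those that were higher. Hsd17b7, which acts in the same C4 demethylation as Nsdhl, was at 5.41, 5.06, 4.65 and 3.83 CPM in WT cDC1 and 10.1, 10.3, 9.16 and 8.30 CPM in WT B cells (−0.997 ± 0.14, edgeR adjusted p = 1.22e-06). Dhcr7 (ENSMUSG00000058454, chromosome 7, 143823145 to 143848410, plus strand), the reductase of the last step to cholesterol, was at 16.3, 14.9, 14.5 and 14.7 CPM in WT cDC1 and 25, 25.6, 24.6 and 22.4 CPM in WT B cells (−0.69 ± 0.06, edgeR adjusted p = 1.66e-09). Neither gene overlapped between the groups. Acat2, the cytosolic acetoacetyl-CoA thiolase gene, fell by 0.47 ± 0.09, Ggps1 by 0.43 ± 0.07 and Srebf1 by 0.25 ± 0.06. Without 1 library, the Idi1 call ended for WT cDC1 library 1 or 2 or WT B cell library 4 (0.0671, 0.0731 and 0.0882), the Sc5d call ended for WT cDC1 library 2 (0.063), Insig1 was called higher for WT cDC1 library 3 or WT B cell library 2 (0.0457 and 0.0327) and Lss lower for WT cDC1 library 1 (0.0359).

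In March1-/- mice 14 of the 29 genes were higher in cDC1 than in B cells and 7 were lower, where 35.7% of all tested genes rose and 35.9% fell. Libraries did not overlap for 13 higher and 6 lower genes, where 33.2% and 32.6% of all tested genes were so. Fdps (1.28 ± 0.11), Nsdhl (0.98 ± 0.08) and Hsd17b7 (−1.38 ± 0.15) kept these directions, and Idi1 was not called (−0.15 ± 0.10). Summed per kb of exon, the 19 enzymes of cDC1 over B cells had a log2 ratio of 0.31 in March1-/- mice and 0.43 in WT mice. Set against March1-/- cDC1, CD11cint cells had 6 of the 29 genes higher and 16 lower, where 36.6% of all tested genes rose and 35.7% fell, with Hsd17b7 at 1.39 ± 0.15 and Fdps at −1.41 ± 0.11. Every CD11cint library lay above every cDC1 library for 5 genes and below for 17, Sc5d among them without a call (edgeR adjusted p = 0.136), where 30.7% and 31.9% of all tested genes were so. Upper-quartile factors shifted the median of all genes by 0.12 there and by −0.12 for March1-/- cDC1 over B cells, with 9 rises and 15 falls in the first and 13 rises and 10 falls in the second. Without 1 library the calls of Sqle, Stard4, Cyp51 and Nr1h3 (cDC1 over B cells) and of Mvk, Insig1, Mvd and Stard4 (CD11cint cells over cDC1) changed. For cDC1 over B cells, Sqle ended without March1-/- B cell library 1, 3 or 4 (edgeR adjusted p = 0.0707, 0.0817 and 0.0614) or cDC1 library 1 (0.0857). Stard4 ended without B cell library 2 (0.0809) or cDC1 library 3 (0.0892), Cyp51 appeared without B cell library 2 (0.0396) and Nr1h3 without cDC1 library 4 (0.0394). For CD11cint cells over cDC1, Mvk ended without CD11cint library 1 (0.075) or cDC1 library 4 (0.0684) and Insig1 without CD11cint library 3 (0.0588) or cDC1 library 4 (0.0576). Mvd appeared without cDC1 library 2 or 4 (0.0397 and 0.0269) and Stard4 without CD11cint library 1 (0.015). Without the 3 March1-/- libraries numbered 1, Sqle was not called for cDC1 over B cells (0.157), and for CD11cint cells over cDC1 Mvk was not called (0.066) and Stard4 was called higher (0.0267).

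The efflux transporters differed from each other. Abca1 (ENSMUSG00000015243, chromosome 4, 53030787 to 53159895, minus strand), which moves cholesterol and phospholipid onto apolipoprotein A-I, was at 41.7, 64.4, 71.8 and 66.1 CPM in CD11cint cells. In cDC1 it was at 3.15, 3.996, 3.66 and 3.28 CPM in March1-/- libraries and 2.17, 2.37, 2.49 and 2.97 CPM in WT libraries. In B cells it was at 91.9, 124.6, 129.1 and 109.0 CPM in March1-/- libraries and 82.9, 90.4, 92.1 and 102.0 CPM in WT libraries. The order over the groups was March1-/- B cells, WT B cells, CD11cint cells and then both cDC1 groups, and the first pair overlapped. WT cDC1 stood below WT B cells by 5.20 ± 0.17 on a log2 scale (edgeR adjusted p = 3.41e-17), and CD11cint cells stood above March1-/- cDC1 by 4.11 ± 0.16 (7.19e-16). CD11cint library 1 and March1-/- B cell library 1 were the lowest of their groups, and the fall in CD11cint cells against March1-/- B cells was called under all 17 alternatives, with an adjusted p of at most 0.00283.

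Abca1 was not called between genotypes in either cell type. It differed by 0.50 ± 0.20 in March1-/- cDC1 (edgeR adjusted p = 0.304) and by 0.31 ± 0.13 in March1-/- B cells (0.209), and both became rises without the 3 March1-/- libraries numbered 1 (0.0244 and 0.0025). In cDC1 it stood at 2.77 to 3.52% of its mean in March1-/- B cells in the March1-/- libraries and at 1.91 to 2.62% in the WT libraries. The 9 pan B genes summed to 2.43 to 3.04% in March1-/- cDC1 and to 1.94 to 2.20% in WT cDC1 on the same scale. How far B cell RNA carries the Abca1 counts of cDC1 was not tested.

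**Figure D5:**
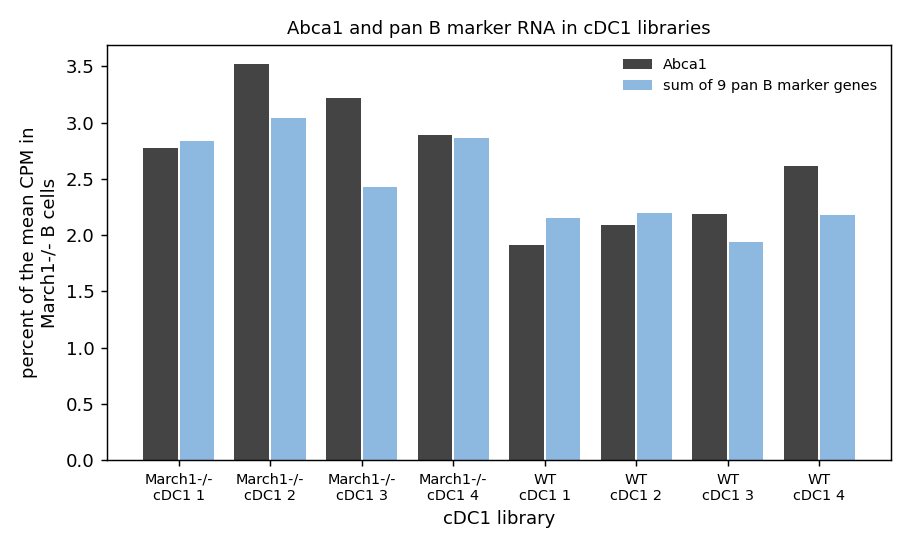
Abca1 (dark bars) and the sum of 9 pan B marker genes (light bars) in each cDC1 library, as percent of their mean CPM in March1-/- B cells. Both measures lie between 1.91 and 3.52%, and in both every March1-/- library lies above every WT library.

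Abcg1 (ENSMUSG00000024030, chromosome 17, 31057675 to 31117988, plus strand), which passes cholesterol to high-density lipoprotein, ran the other way. It was at 65.3, 78.2, 73.7 and 62.2 CPM in the CD11cint group, 104.6, 123.5, 121.6 and 106.2 CPM in March1-/- cDC1 and 104.6, 118.6, 103.6 and 128.5 CPM in WT cDC1. In B cells it was at 55.0, 67.7, 56.8 and 55.5 CPM in March1-/- libraries and 64.5, 60.2, 52.7 and 58.3 CPM in WT libraries. All cDC1 libraries lay above all others, with WT cDC1 over WT B cells at 0.95 ± 0.09 (edgeR adjusted p = 3.03e-09). The genotypes overlapped in both cell types, with a log2 fold change of 0.00 ± 0.09 in cDC1 (95% interval −0.191 to 0.194) and of −0.004 ± 0.09 in B cells (95% interval −0.200 to 0.191). The receptor gene Nr1h2 was higher in WT cDC1 than in WT B cells (0.42 ± 0.08, edgeR adjusted p = 5.48e-05), and Nr1h3 was not called between them (0.32 ± 0.24).

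Some of these genes share exon bases with a neighbour, and no source used here says whether reads were assigned by strand. Fdps shares 26.7% of its exon bases with Gm43738 on the same strand, which averaged 66.4 CPM in WT cDC1 and 32.8 CPM in WT B cells. The level of Fdps and the size of its difference between these groups are therefore uncertain. Fdft1 shares 18.3% with Ctsb on the opposite strand, which averaged 489.9 CPM in WT cDC1 and 210.6 CPM in WT B cells. Scap shares 13.2% with 5830462I19Rik and Hmgcs1 12.1% with Gm48342, both on the opposite strand, and Tm7sf2 shares 12.1% with Vps51 on the same strand. Idi1 shares 9.21% with Gm48574 on the opposite strand, whose level is not given here.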

How the data were processed

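RNA-seq of 20 libraries in 5 groups was used, with groups and numbers taken from the titles. The values deposited by the authors are whole-number read counts for each gene, held in 40 tables (2 sequencing lanes per library) and again in 1 table of the series. Tools in the submitters' processing notes are STAR, Subread, CASAVA, FastQC, limma and edgeR, without versions, and the builds are GRCm38 and mm10. Per the labels' protocols, cells were sorted on a BD Influx and libraries made with a TruSeq kit.

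The lanes were added, and the sum equalled the series table in all 566760 cells. Of the gene identifiers 28290 matched GENCODE M21 (GRCm38), which gave symbols, positions and exon lengths, and 48 did not (0.0414% of counts). These 48 kept their identifier in place of a symbol. The lanes of a library agreed within sampling noise (chi-square per gene 0.989 to 1.031) and libraries of a group did not (4.55 to 71.4), so all 20 were kept. A count of 3 corresponds to 0.0916 to 0.1334 CPM. This floor covers counting error only, since reads carry no molecular identifiers.

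Genes were filtered with filterByExpr, scaled with TMM and fitted with edgeR 4.0.16 (glmQLFit, robust, 15 residual degrees of freedom) over all libraries, in R 4.3.3. Alternatives used RLE and upper-quartile factors, DESeq2 1.42.0, limma-voom (limma 3.58.1), no filter, a filter at 1 CPM in 4 libraries, the compared groups alone, the replicate number as a block, and libraries left out. The edgeR step was tested on simulated data. Same-numbered libraries of CD11cint cells and March1-/- B cells deviated together from their group means (correlations 0.213 to 0.503, against −0.405 to 0.102 for other numbers), and with every pair over 0.1 the numbers were taken to pair these groups. Promoters and their coordinates are from RefSeq. Python 3.11.15 with numpy 2.4.6, pandas 2.3.3, scipy 1.17.1 and matplotlib 3.10.9 was used.

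By rule, values in every library are given for members called in CD11cint over March1-/- B cells or in either genotype comparison with a log2 fold change of at least 0.5 either way, for members called in the difference of the genotype effects, and for the 3 largest members in each direction of WT cDC1 over WT B cells. Among 49 other sterol genes, the 3 called genes with the largest change in each direction are named in each comparison. Mvd, Srebf2 and Insig1 were added after their values were seen. The members, the lists and the tests were chosen with earlier results of these data known.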

Additional observations from a re-analysis of the deposited data

Results flagged for a closer look

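Among 145 sets of 4 libraries (29 genes in 5 groups), 9 held a library whose gap to the nearest other, relative to the whole range, passed the 95% critical value of Dixon's test. About 1 in 20 sets is picked out by chance. Sqle stood high in library 2 of 2 groups, at 13.4 CPM in CD11cint cells (10.3 to 10.6 in the others) and at 16.9 CPM in March1-/- B cells (13.3 to 13.9). Insig1 was at 29.1 CPM in March1-/- cDC1 library 4 (24.67 to 25.01), at 24.2 CPM in March1-/- B cell library 3 (28.6 to 29.5) and at 31.8 CPM in WT B cell library 2 (27.5 to 27.7). In March1-/- cDC1, Hsd17b7 was at 2.60 CPM in library 1 (3.39 to 3.44) and Ebp at 29.3 CPM in library 4 (35.0 to 36.0). In March1-/- B cells, Dhcr7 was at 24.8 CPM in library 4 (22.8 to 22.9) and Abcg1 at 67.7 CPM in library 2 (55.0 to 56.8).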

How the results depend on the processing

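No called member changed sign under any alternative run. Sets of values that moved are given in the order of the comparisons, against the value of the fit of all libraries. For March1-/- cDC1 over WT cDC1 (8 members lower, 0 higher, 536 genes called), 5 were lower and 1 higher without the 3 March1-/- libraries numbered 1, and leaving out 1 library gave 3 to 6 lower and 370 to 537 genes called. For March1-/- B cells over WT B cells (2 lower, 0 higher, 890 genes), RLE factors gave 1 lower, no filter 0 lower, the replicate block 1 higher, and the fit without the 3 libraries numbered 1 gave 1 higher and 1 lower, with 0 to 2 lower and 574 to 879 genes when 1 library was left out. For CD11cint over March1-/- B cells (1 higher, 6 lower, 4613 genes), 3 were higher with upper-quartile factors, 2 with no filter, 0 in the fit of these groups alone (3018 genes), 4 with the replicate block, and 0 higher and 3 lower without the 3 libraries numbered 1, with 0 to 2 higher, 5 to 6 lower and 3650 to 4751 genes when 1 library was left out. For CD11cint over WT B cells (0 higher, 2625 genes), 1 was higher with DESeq2 and 1 with no filter, 2 with the replicate block, and 0 to 1 when 1 library was left out (1780 to 3179 genes). For the difference of the genotype effects (441 genes, 0 lower), DESeq2 called 679 genes, and the replicate block called 680 and 1 member lower, Idi1 (edgeR adjusted p = 0.0319), with 313 to 555 genes when 1 library was left out. The log2 ratio of summed levels in CPM not divided by exon length was 0.23 for the 19 enzymes in March1-/- cDC1 over March1-/- B cells (0.31 per kb). For the lanosterol-to-cholesterol enzymes it was −0.31 in CD11cint cells over March1-/- cDC1 (−0.41 per kb), 0.34 in WT cDC1 over WT B cells (0.46 per kb) and 0.27 in March1-/- cDC1 over March1-/- B cells (0.40 per kb). The cause of these moves was not tested, apart from smaller fits having fewer libraries.

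Outside CD11cint and March1-/- B cells the numbers were not taken to pair libraries. Same-numbered correlations there ran from −0.042 to 0.369 and were not all over 0.1 in any pair of groups. Yet same numbers correlated above all others in WT B cells with WT cDC1 (0.089 to 0.315, against at most 0.077). The same held for March1-/- B cells with March1-/- cDC1 (0.088 to 0.202, against at most 0.024), so pairing there was not settled. With the number as a block, 19 members rose and 7 fell in WT cDC1 over WT B cells, where 6837 of the 18710 tested genes rose and 7276 fell. For March1-/- cDC1, 16 members rose and 7 fell over B cells, where 6968 of all tested genes rose and 7146 fell. For CD11cint cells over March1-/- cDC1, 6 members rose and 18 fell, where 7259 of all tested genes rose and 7087 fell. In the block across genotypes Fdps (0.0154) and Msmo1 (0.0152) were also called lower in March1-/- cDC1, and Sqle (0.0167) lower and Abca1 (0.0226) higher in March1-/- B cells. Of all tested genes that block called 361 lower in March1-/- cDC1, and 656 lower and 672 higher in March1-/- B cells. At 1.15 to 1.47 CPM on average, Nr1h3 had the lowest counts of the 29 genes, and depth limits its differences most.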

Other observations

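Beyond the 29 genes, 49 other genes of sterol handling, bile acid and oxysterol synthesis, fatty acid synthesis and SREBP control were listed, of which 47 were tested. In March1-/- cDC1 2 rose and 1 fell against WT cDC1, where 1.53% of all tested genes rose and 1.34% fell. Cyp7b1, an oxysterol hydroxylase gene, averaged 11.8 ± 1.46 CPM in March1-/- cDC1 and 5.42 ± 1.18 CPM in WT cDC1 (log2 fold change 1.12 ± 0.20, edgeR adjusted p = 0.00156), and it had at most 4 counts in any B cell or CD11cint library. The stearoyl-CoA desaturase gene Scd1 averaged 33.7 ± 2.14 CPM in March1-/- cDC1 and 15.7 ± 2.42 CPM in WT cDC1 (1.10 ± 0.11, 5.48e-07). Scd1 averaged 924.2 and 927.6 CPM in March1-/- and WT B cells, and the pan B genes also rose in March1-/- cDC1, whose part in this rise was not tested. Npc2, which encodes a lysosomal cholesterol carrier, averaged 325.6 ± 18.1 CPM in March1-/- cDC1 and 416.2 ± 18.1 CPM in WT cDC1 (−0.35 ± 0.08, 0.00979). The genotype effect differed between cDC1 and B cells for Scd1 (1.11 ± 0.14, 7.08e-05) and Npc2 (−0.48 ± 0.11, 0.0185).

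In March1-/- B cells Acss2, an acetyl-CoA synthetase gene, was the only one of the 47 that rose (0.43 ± 0.10, edgeR adjusted p = 0.0137), and none fell. Of all tested genes 2.31% rose and 2.44% fell there. In CD11cint cells 4 rose and 13 fell against March1-/- B cells, where 12.5% of all tested genes rose and 12.2% fell. Apoe, the apolipoprotein E gene, averaged 70.4 ± 12.1 CPM in the CD11cint group, against 133.0 ± 19.6 CPM in March1-/- B cells (−0.92 ± 0.11, 2.07e-06), and the sterol carrier gene Osbpl8 and the fatty acid desaturase gene Fads1 fell by 0.62 ± 0.12 and 0.61 ± 0.12 on the log2 scale. Cyp27a1, a sterol hydroxylase gene, Gramd1b, a sterol transfer gene, and the cholesteryl ester hydrolase gene Nceh1 rose by 0.64 ± 0.15, 0.42 ± 0.12 and 0.33 ± 0.09. Against WT B cells 9 fell and none rose, where 8.04% of all tested genes fell and 5.99% rose. Fads2 was at −1.34 ± 0.27, Fads1 at −0.89 ± 0.11 and Apoe at −0.60 ± 0.11.

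Between cell types 22 of the 47 were higher and 15 lower in WT cDC1 than in WT B cells, where 34.9% of all tested genes were higher and 36.2% lower. The bile acid synthesis genes Hsd3b7 (4.52 ± 0.10) and Cyp27a1 (4.35 ± 0.16) were higher, and so was Cyp7b1, whose B cell counts are too low for a fold. Scd1 (−5.88 ± 0.12), Mylip (−1.57 ± 0.10), which encodes a ligase that degrades the LDL receptor, and the sterol transfer gene Gramd1a (−1.32 ± 0.09) were lower. In March1-/- mice 24 were higher and 15 lower in cDC1 than in B cells, where 35.7% of all tested genes were higher and 35.9% lower. Cyp27a1 was at 4.51 ± 0.16, Hsd3b7 at 4.46 ± 0.10, Scd1 at −4.78 ± 0.11, Mylip at −1.58 ± 0.10 and Gramd1a at −1.54 ± 0.09, and Cyp7b1 was again higher. In CD11cint cells 13 were higher and 25 lower than in March1-/- cDC1, where 36.6% of all tested genes were higher and 35.7% lower. Scd1 was at 4.85 ± 0.12, Mylip at 1.19 ± 0.10 and Gramd1a at 1.09 ± 0.09. Hsd3b7 was at −4.61 ± 0.10 and the retinoid X receptor gene Rxra at −4.38 ± 0.11, and Cyp7b1 was lower.

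Single libraries held the extreme level of many enzymes at once. In WT B cells library 2 held the highest level of 13 of the 19 synthesis enzymes and library 4 the lowest of 13. In WT cDC1 library 4 held the lowest level of 12 of the 19. Library 4 also had the lowest sum over the 19 enzymes in all 5 groups. It was at 92.8 CPM per kb in CD11cint cells, 120.3 in March1-/- cDC1 and 140.9 in WT cDC1. In March1-/- and WT B cells it was at 99.2 and 101.9. The labels do not say what equal numbers share, and the cause was not tested.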
